A study of Mus musculus with 21 samples.

Results

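The nuclear genes for subunits of the oxidative phosphorylation complexes were described in mouse hippocampus after ethanol. Members were the rows of the count table whose symbols follow the naming of complex I to complex V subunits (Ndufa, Ndufb, Ndufc, Ndufs and Ndufv numbers, Sdha to Sdhd, Uqcr, Cox4 to Cox8, and Atp5). The rule gave 83 of the 24498 genes in the table: 36 for complex I, 4 for complex II, 8 for complex III, 18 for complex IV and 17 for complex V. It used names and no measured value, and no name was dropped for its ending. It also took in Atp5s, Atp5sl and Cox7a2l, which carry subunit-like names but are assembly or supercomplex factors. Genes were placed in complexes by name throughout. Atp5s and Atp5sl are therefore counted under complex V, Cox7a2l under complex IV, and Ndufa4, found in complex IV, under complex I. The table held 0 mitochondrially encoded genes, so only the nuclear share of each complex was measured. Summed subunit transcripts of all 5 complexes were highest in the 3 ethanol libraries with the lowest share of gene reads on the ribosomal RNA gene Rn45s. These libraries fell in 3 of the 4 groups. No subunit gene passed the test between knockdown and control or between regions.

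Oxidative phosphorylation is carried out in the inner mitochondrial membrane. Complex I takes electrons from NADH and complex II from succinate, complex III passes them to cytochrome c, complex IV hands them to oxygen, and complex V (ATP synthase) uses the resulting proton gradient to make ATP. Most subunits are encoded in the nucleus, while mitochondrial DNA encodes core subunits of every complex except complex II. Neurons rely on this pathway for the ATP that drives their ion pumps, and several subunits of complex IV exist as alternative isoforms that heart, skeletal muscle, lung or testis use.

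The study asked how hippocampal gene expression responds to ethanol with and without ACSS2, the enzyme that makes acetyl-CoA from acetate. Male mice aged 8 weeks received ethanol intraperitoneally at 2 g per kg as a 20% solution, and RNA was sequenced with a directional kit. The knockdown arm carried an AAV2/9 vector in which a U6 promoter drives a short hairpin RNA against Acss2 and a CMV promoter drives EGFP. The sample protocol places this vector in the dorsal hippocampus, whereas the series text can be read as systemic delivery, and a vector for the control arm is not described in the sources used here. Strain, the time from ethanol to dissection, how ribosomal RNA was removed and whether replicates came from separate animals are likewise not given, so p-values measure the spread between these libraries, which may be technical. The ethanol libraries with over 1000000 gene reads fell into 5 groups: dorsal knockdown (4 libraries), dorsal control (3), ventral knockdown (3), ventral control (4) and 1 knockdown library of total hippocampus, which entered no test.

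These 15 libraries held 2819837 to 13240179 gene reads, of which 0.699% to 1.73% fell in the 83 members. A further dorsal knockdown library with 5021 gene reads held 57 member reads, a further ventral knockdown library with 8744 held 115, and the 4 untreated dorsal libraries held 5 to 748 member reads among 4279 to 221847, too few to place single subunits, so no ethanol effect was tested. Acss2, the targeted gene, stood at 44.7, 41.3, 17.7 and 19.0 CPM in dorsal knockdown libraries, against 52.3, 58.3 and 53.4 CPM in dorsal controls. In ventral hippocampus it stood at 28.8, 64.4 and 36.7 CPM in knockdown, against 49.6, 53.4, 48.0 and 47.5 CPM in control. The library labelled ventral knockdown 3 (64.4 CPM) thus lay above every control, and the total-hippocampus knockdown library (58.0 CPM) lay among them. CPM here are counts per 1000000 gene reads after TMM scaling, a correction for library composition.

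Promoter sequence is shown first for 5 of the members named below. Ndufb4 is shown because its transcript varied most between libraries among members of at least 5 CPM. The 4 others were picked because their 120 bases before the start site hold a binding motif of a factor known to act on subunit genes. Sequences are from RefSeq (GRCm38.p6), 5′ to 3′ on the gene's own strand, which is the minus strand for all 5. Capitals mark the motif: GCATGCGC for NRF1 in Ndufa6 and Atp5k, beginning 83 and 48 bases before the start site, and ACTTCCGG, the reverse complement of the ETS motif CCGGAAGT bound by GABP, in Atp5h and Uqcrh, beginning 39 and 11 bases before it. The windows are chr16:37654369-37654488 (Ndufb4), chr15:82354292-82354411 (Ndufa6), chr5:108434400-108434519 (Atp5k), chr11:115419920-115420039 (Atp5h) and chr4:116075071-116075190 (Uqcrh).
Ndufb4: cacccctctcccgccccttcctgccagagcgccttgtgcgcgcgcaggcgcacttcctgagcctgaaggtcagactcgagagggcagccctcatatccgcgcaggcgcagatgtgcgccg
Ndufa6: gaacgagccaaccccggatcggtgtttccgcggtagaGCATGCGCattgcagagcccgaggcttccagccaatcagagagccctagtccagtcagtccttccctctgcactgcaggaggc
Atp5k: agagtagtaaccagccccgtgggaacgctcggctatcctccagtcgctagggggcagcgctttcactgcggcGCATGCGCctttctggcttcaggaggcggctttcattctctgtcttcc
Atp5h: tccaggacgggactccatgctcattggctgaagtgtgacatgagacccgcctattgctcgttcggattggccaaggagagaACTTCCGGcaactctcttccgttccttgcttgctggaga
Uqcrh: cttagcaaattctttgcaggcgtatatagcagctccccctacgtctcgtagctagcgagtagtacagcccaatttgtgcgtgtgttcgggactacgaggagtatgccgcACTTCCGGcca

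Over 300 bases (250 before to 50 after the start), 69 of the 83 members had a RefSeq promoter entry. GCATGCGC or its reverse complement GCGCATGC, which overlap each other where GCGCATGCGC occurs, was found in 10 of the 69 (14.5%), against 3.05% of 27025 genes. The ETS motif was found on either strand in 5 (7.25% against 4.31%). AAGATGGC or GCCATCTT, the YY1 motif, was found in 11 (15.9% against 3.19%). At least 1 of the 3 motifs was present in 25 members (36.2% against 9.91% of all promoters). The 27025 genes were not limited to those expressed in these libraries, so the excess cannot be called particular to subunit genes. Ndufb4 had none of them in its 300 bases.

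Levels differed widely between subunits. Per kilobase of transcript, the highest member of complex IV and of all members was Cox4i1 (chromosome 8, 120668222 to 120674207, mm10, plus strand), the regulatory subunit that binds ATP, at 765 CPM per kb. Cox8a and Cox6a1 followed at 579 and 558 CPM per kb. Atp5b, the catalytic beta subunit of ATP synthase (chromosome 10, 128083273 to 128090391, plus strand), led complex V at 517 CPM per kb. Ndufa4, named for complex I but found in complex IV, led the Nduf genes at 433 CPM per kb. Uqcrh, the hinge protein beside cytochrome c1, led complex III at 270 CPM per kb, and Sdha, the flavoprotein that oxidises succinate, led complex II at 126 CPM per kb.

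The isoforms known from other tissues were near the bottom. Cox6a2 and Cox7a1, the heart and muscle forms, averaged 4.13 and 1.39 CPM over the 15 libraries. Cox6b2 of testis averaged 2.95 CPM and Cox4i2 of lung 1.22 CPM. Cox7b2, a testis form, was lower at 0.312 CPM, and Cox8c had 1 read in all 15 libraries. Cox8b, the heart and muscle partner of Cox8a, lay between 0 and 1.04 CPM in 14 libraries and at 7.70 CPM in ventral control 4, the library with the highest choroid plexus marker sum (15018 CPM over 5 genes); the part of that tissue in the value was not tested.

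Some low counts come with shared sequence. Ndufs5, an accessory subunit of complex I, had 0 reads in all 15 libraries, which allows at most 0.213 to 1.32 CPM per library (3 counts, on the TMM scale), and 35.6% of its 50-base windows occur in another annotated gene. Atp5l, subunit g of ATP synthase, averaged 0.999 CPM with 68.5% of its windows shared with up to 13 genes, and Atp5g2, one of 3 genes for the c subunit, had 100% shared. Shared windows were also present in members at higher levels. They made up 56.2% in Atp5g1 (61.4 CPM), 50.5% in Atp5h (151 CPM), 43.2% in Uqcrb (59.0 CPM) and 37.0% in Ndufb4 (21.1 CPM). Levels of all these genes are uncertain, since the handling of reads that fit several places is not stated. The part of shared sequence in the low counts was not tested. Of the 83 members, 46 had no shared window. Members overlapped by a gene on the other strand numbered 28, and no label or header states which strand setting the counting used.

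Summed over members, transcript levels within each group were set apart by single libraries. The sums were 8692, 14810, 9482 and 7864 CPM in dorsal knockdown, against 9302, 9348 and 9625 CPM in dorsal control. In ventral hippocampus they were 8736, 15782 and 8449 CPM in knockdown, against 13430, 10372, 7708 and 8219 CPM in control. Dorsal knockdown 2, the library labelled ventral knockdown 3 and ventral control 1 were the high ones, and both pairs of groups overlapped. The total-hippocampus knockdown library held 8621 CPM.

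**Figure D1:**
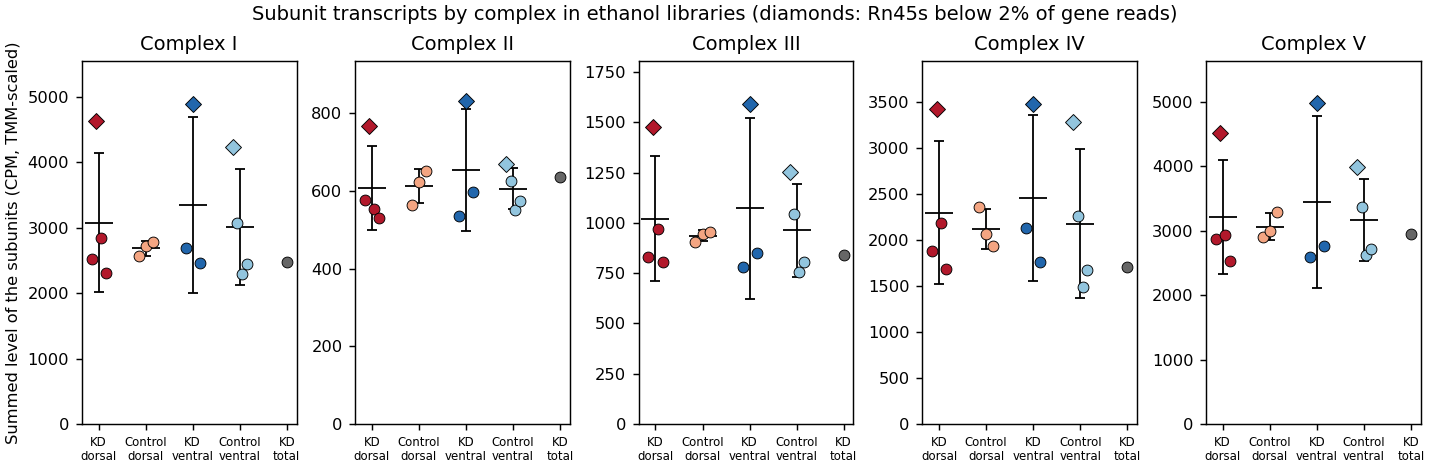
Summed CPM of the subunits of each complex in every ethanol library with over 1000000 gene reads; points are libraries, bars are group means with the SD, and the single total-hippocampus library has none. In every complex the 3 diamonds (libraries with Rn45s below 2% of gene reads) lie above all other points, at 4233 to 4899 CPM for complex I against 2295 to 3077 CPM in the other 12.

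The same 3 libraries were set apart by Rn45s, the row named for the 45S ribosomal RNA precursor. How ribosomal RNA was removed is not given, so its share is read as a property of the library and not as a precursor level. Its share of gene reads was 18.2%, 1.17%, 10.7% and 8.45% in dorsal knockdown 1 to 4, against 20.7%, 12.3% and 3.66% in dorsal control 1 to 3. It was 3.49%, 1.08% and 17.4% in ventral knockdown 2 to 4, against 0.625%, 4.61%, 12.6% and 10.7% in ventral control 1 to 4, and 9.68% in total hippocampus. The low-share libraries thus fell in 3 of the 4 groups. Each of the 4 groups had its highest subunit sum in its library of lowest Rn45s share, and 3 of the 4 had their lowest sum in the library of highest share.

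The separation held in all 5 complexes. Complex I subunits summed to 4233 to 4899 CPM in the 3 libraries of lowest share, against 2295 to 3077 CPM in the other 12. Complex II, at 670 to 833 CPM against 531 to 652 CPM, had the narrowest gap. Complex III reached 1253 to 1591 CPM against 753 to 1044 CPM, complex IV 3285 to 3478 CPM against 1489 to 2362 CPM, and complex V 3989 to 4980 CPM against 2526 to 3367 CPM. By gene, 48 of the 79 members that passed the low-count filter (60.8%) were higher in each of the 3 libraries than in any of the other 12, and 10.8% of the 14578 tested genes were. The filter left out Ndufs5, Cox7b2, Cox8b and Cox8c. Leaving Rn45s reads out of the total gave member shares of 0.834% to 1.75%.

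**Figure D2:**
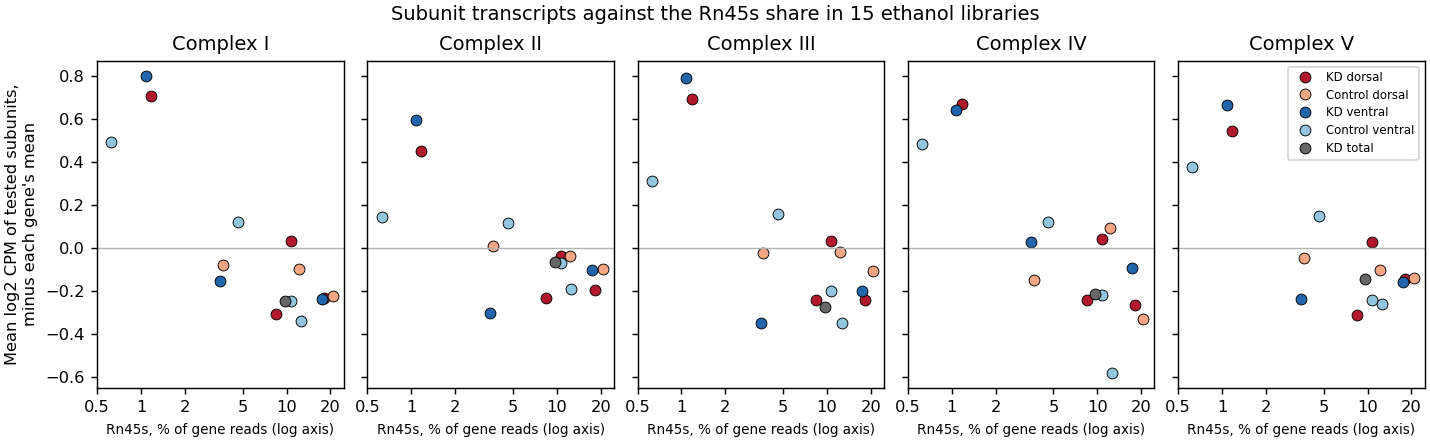
Mean log2 CPM of the tested subunits of each complex, after subtracting each gene's mean over the 15 libraries, against the Rn45s share of gene reads on a log axis; each point is a library, coloured by group. The 3 libraries between 0.625% and 1.17% lie highest in all 5 complexes, and the 12 libraries from 3.49% to 20.7% lie between -0.58 and 0.16 in the 5 panels.

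The relation was measured per gene as a slope, the change in log2 CPM for each doubling of the Rn45s share, fitted inside the 4 groups of 14 dorsal and ventral libraries with edgeR's quasi-likelihood test. Levels were lower with a higher share, past a Benjamini-Hochberg adjusted p under 0.05 over all genes, in 53 of 79 members (67.1%), and higher in 0. The background was 16% of the 14578 tested genes called lower, with 1987 genes called higher. Slopes were negative in 76 of 79 members, with a median of -0.17, against 0.00 over all tested genes.

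Complex I, the entry point for NADH, had 28 of 35 tested members lower, with a median slope of -0.20. Ndufb4, an accessory subunit of the membrane arm, had the steepest slope of all members. It stood at 9.50, 39.6, 18.1 and 10.4 CPM in dorsal knockdown, against 7.91, 11.5 and 14.1 CPM in dorsal control. In ventral hippocampus it stood at 28.4, 29.4 and 12.5 CPM in knockdown, against 81.7, 22.2, 12.3 and 10.6 CPM in control. In all 4 groups its highest value came from the library of lowest Rn45s share, and the slope was -0.50 (SE 0.06, edgeR adjusted p = 0.000449). Ndufc1, a small membrane-arm subunit, followed at -0.37 (SE 0.06), with 73.8 CPM in dorsal knockdown 2, 67.6 CPM in the library labelled ventral knockdown 3 and 101 CPM in ventral control 1, against 20.1 to 43.0 CPM in the other 12 libraries. Ndufa5, Ndufa4 and Ndufa6 had slopes of -0.34, -0.32 and -0.27. Ndufa13, one of the 3 least variable members of at least 5 CPM, had a slope of -0.08 (SE 0.04) and was not called.

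The core subunits of complex I that hold the flavin and iron-sulphur clusters had slopes of unlike size. Ndufv2, of the NADH-binding module, had a slope of -0.34 (SE 0.04, edgeR adjusted p = 0.000487). Ndufs1, the large iron-sulphur subunit of that module, had a slope of -0.12 (SE 0.03). Ndufs7, next to the quinone site, had one of -0.16 (SE 0.04). Ndufv1, the subunit that binds FMN and NADH beside Ndufv2, had a slope of -0.01 (SE 0.07, adjusted p = 0.952). Its values were 113, 139, 114 and 114 CPM in dorsal knockdown, against 146, 147 and 146 CPM in dorsal control, and in ventral hippocampus 62.5, 205 and 136 CPM in knockdown, against 71.9, 121, 125 and 107 CPM in control. It was thus highest in 1 low-share library (the library labelled ventral knockdown 3) and low in another (ventral control 1). The difference between these slopes was not tested.

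In complex II, which is also an enzyme of the TCA cycle, Sdhb and Sdhd were called lower, 2 of 4 members. Sdha varied least of the members of at least 5 CPM, at 370, 401, 296 and 322 CPM in dorsal knockdown, against 326, 392 and 411 CPM in dorsal control, and at 343, 420 and 372 CPM in ventral knockdown, against 382, 341, 340 and 340 CPM in ventral control. Its slope was -0.05 (SE 0.03, edgeR adjusted p = 0.25). Of the low-share libraries, the library labelled ventral knockdown 3 (420 CPM) was the highest of the 15, while dorsal knockdown 2 (401 CPM) and ventral control 1 (382 CPM) lay within the range of the others.

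Complex III, which oxidises ubiquinol, had 4 of 8 members lower. Uqcrb, a small subunit near the quinone site, had the smallest p of all members. It stood at 31.7, 106, 38.7 and 37.4 CPM in dorsal knockdown, against 32.1, 45.6 and 46.6 CPM in dorsal control. Ventral values were 58.0, 90.2 and 36.1 CPM in knockdown, against 165, 73.8, 41.1 and 52.4 CPM in control. The 3 low-share libraries held the 3 highest values, and the slope was -0.39 (SE 0.04, edgeR adjusted p = 0.000326). Uqcrc2, a core protein, had a slope of -0.26 (SE 0.03) and Uqcrh one of -0.20 (SE 0.04).

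Complex IV, the oxidase, had 8 of 15 tested members lower and a median slope of -0.21. Cox6c, a nuclear-encoded accessory subunit, ran from 77.4 to 179 CPM in the 12 libraries of higher share. It stood at 260 CPM in dorsal knockdown 2, at 257 CPM in the library labelled ventral knockdown 3 and at 412 CPM in ventral control 1, with a slope of -0.38 (SE 0.06, edgeR adjusted p = 0.000765). Cox7b had a slope of -0.31 (SE 0.04) and Cox4i1 one of -0.18 (SE 0.04). Of the isoforms of other tissues, 4 of 7 were tested and 0 were called; Cox7a1 and Cox6b2 had slopes of 0.14 and 0.02, and Cox6a2 one of -0.37 with an SE of 0.16.

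In complex V, 11 of 17 members were lower. Atp5c1, the gamma subunit that turns inside the catalytic head, had a slope of -0.31 (SE 0.04, edgeR adjusted p = 0.000449), with 280, 261 and 364 CPM in the 3 low-share libraries and 112 to 180 CPM in the other 12. Atp5h, subunit d of the stalk, had a slope of -0.30 and the assembly factor Atp5s one of -0.34. The catalytic head's alpha and beta subunits were flatter, at -0.09 (SE 0.04) for Atp5a1, which was not called, and -0.13 (SE 0.04) for Atp5b, which was. Atp5d, the delta subunit, at -0.06, and Atp5k, subunit e, at -0.10, were not called. Atp5l had the highest slope of all members, 0.20 (SE 0.12), on 115 reads in all.

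**Figure D3:**
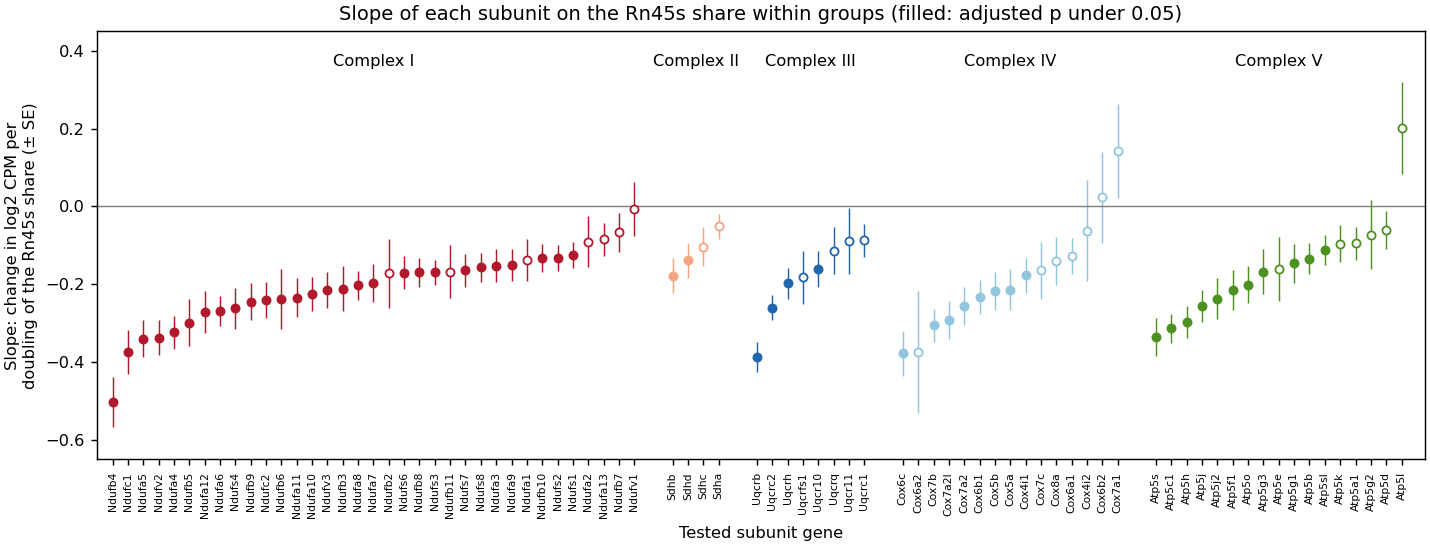
Slope of each tested subunit gene on the Rn45s share (change in log2 CPM per doubling, bars are the SE), ordered within each complex; filled points have an edgeR adjusted p under 0.05. Of 79 points, 76 lie below 0 and 53 are filled, from Ndufb4 at -0.50 to Atp5l at 0.20.

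The called slopes rest on the 3 low-share libraries together. Without all 3, a choice made after seeing the data, 0 of 79 members were called, against a background of 0% of 14759 genes lower and 4 genes higher by edgeR. The members' median slope was then -0.05, with 56 of 79 negative, and 7 members (8.86%) had an unadjusted p under 0.05, against 6.66% of genes. Leaving out dorsal knockdown 2 alone left 32 members called, and leaving out any other single library 44 to 55. Among the other 12 libraries, the mean member score and the log2 Rn45s share had a Pearson r of -0.41 and a Spearman rho of -0.35, given as a description, and -0.51 and -0.19 without the 2 farthest libraries.

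Marker lists of other cell types were read beside this. The summed level of 5 endothelial genes was 101 to 116 CPM in the 3 low-share libraries, against 120 to 234 CPM in the other 12, with no marker at 0. Of the 5 endothelial slopes on the Rn45s share, 4 were positive and 1 negative. Sums of 7 neuronal genes overlapped, at 7371 to 10649 CPM against 7131 to 11992 CPM, as did those of 5 astrocyte genes, at 1798 to 2437 CPM against 1771 to 5387 CPM. The sums for oligodendrocyte, microglia, choroid plexus, meningeal fibroblast, CA1, dentate granule, and thalamus and habenula markers overlapped as well. Endothelium was thus the only list set apart by its sum, but not by slope. Slopes called higher were 2 of 5 endothelial, 2 of 5 meningeal fibroblast and 2 of 4 thalamus and habenula genes. Also called higher were 1 of 7 neuronal, 1 of 5 astrocyte and 1 of 4 CA1 genes. Called lower were 2 neuronal genes and 1 meningeal fibroblast gene. Over all tested genes, 13.6% were called higher and 16% lower. The part of cell makeup in the subunit levels was not tested, and in bulk RNA a change in the number of cells of a type and a change in RNA per cell cannot be told apart.

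Subunit transcripts are short, with a median length of 727 bases, against 2861 bases over tested genes. Across 14476 genes with a length, slope and length had a Spearman rho of 0.44, and across the 79 members -0.04, both as descriptions since genes are not independent. Among transcripts over 600 and up to 1000 bases, 23 of 28 members were called lower and their median slope was -0.21, against 36.9% of 818 other genes and a median of -0.13. Over 1000 and up to 1500 bases, 10 of 12 members were called, with a median of -0.23, against 30.2% and -0.09 for other genes. Up to 600 bases, 10 of 24 members were called, against 30.3% of 274 other genes, and the medians were close, at -0.16 for members and -0.15 for other genes. The members' median thus lay below that of other genes of like length, by the least among the shortest transcripts; these differences were not tested.

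**Figure D4:**
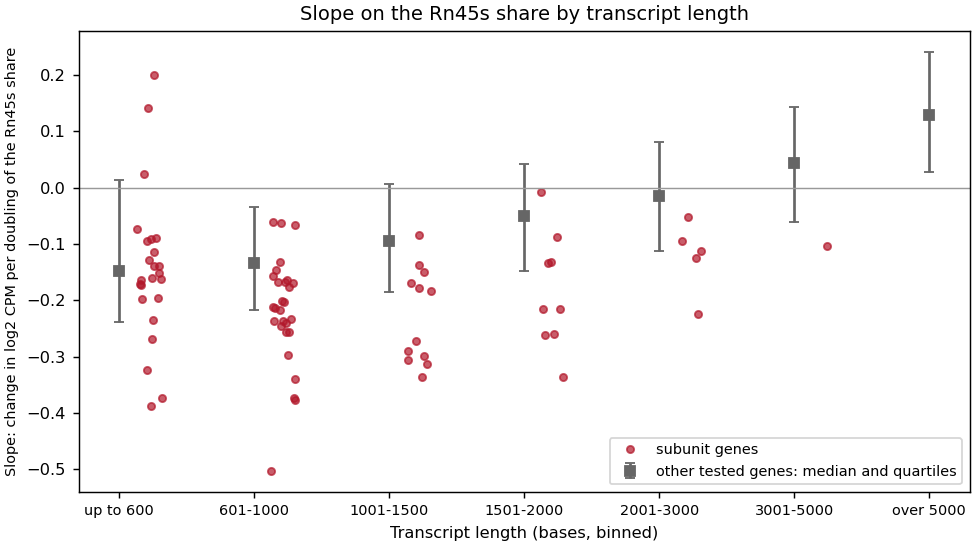
Slope on the Rn45s share by transcript length in bins of bases; red points are subunit genes, grey squares are the median of all other tested genes in the bin and grey bars their quartiles. The other genes' median runs from -0.15 in the shortest bin to 0.13 above 5000 bases, and the subunits' own median is -0.21 from over 600 to 1000 bases.

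Genes that work with the complexes were counted from lists of known roles, against the background of 16% of tested genes called lower and 13.6% called higher. Of 14 tested complex I assembly factors 8 were called lower, with Ndufaf2 at -0.30 (SE 0.05), and so were 4 of 4 complex II, 2 of 6 complex III, 8 of 20 complex IV (Cox20 at -0.44, SE 0.06) and 2 of 3 complex V factors. Of 16 enzymes of the TCA cycle and pyruvate dehydrogenase 11 were lower, among them Sucla2 at -0.26 (SE 0.03). Cycs, the electron carrier cytochrome c, had a slope of -0.22 (SE 0.03), and 7 of 14 electron carriers and exchangers were called lower. Mitochondrial ribosomal proteins (54 of 77 lower) and cytosolic ribosomal proteins (53 of 80 lower) had medians of -0.18 and -0.19. Glycolysis had 1 of 15 enzymes lower (Tpi1, -0.13) and a median of -0.05. Among 12 regulators of mitochondrial biogenesis 3 were lower, including Tfam at -0.19 (SE 0.04), and 3 higher, including Ppargc1b at 0.45 (SE 0.07), with 5 of the 12 slopes positive. Slopes were also positive for 2 of 20 complex IV assembly factors, 2 of 16 TCA cycle genes and 4 of 15 glycolytic enzymes, none of them called higher. Of 4 tested genes listed as subunits with names outside the rule, Usmg5 (-0.37) and Atpif1 (-0.35) were lower, and Cyc1 and Ndufab1 were not called. Atpif1 encodes an inhibitor of ATP synthase rather than a subunit.

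The genes most like the mean member score over 15 libraries were Mrpl11 of the mitochondrial ribosome (Pearson r = 0.991), Psmb7 of the proteasome (0.975) and Coa3, a complex IV assembly factor (0.974). The next 7 were Vti1b, Cops5, Tmem50a, Rpl14, Rpl35a, BC031181 and Skp1a, down to r = 0.957. Over the 12 libraries outside the low-share 3, r was 0.940 for Mrpl11, 0.861 for Psmb7 and 0.794 for Coa3. All 15 points share their library's depth and scaling. Each of 74 members with at least 5 CPM was also set against the mean of the other members over those 12 libraries, giving a median r of 0.55, positive in 73. Holders of the YY1 motif had a median slope of -0.17 and were called lower in 11 of 11 cases, against -0.18 and 35 of 55 for the rest. Holders of the NRF1 motif had a median of -0.11 and 4 of 10 called, against -0.19 and 42 of 56. For the ETS motif the median was -0.17 with 3 of 5 called, against -0.18 and 43 of 61. These differences were not tested, and the share called among motif holders over all genes is not given here.

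The comparison of knockdown with control asks whether these transcripts differ after ethanol between libraries labelled knockdown and libraries labelled control. Acss2 itself was not called by edgeR in dorsal or ventral hippocampus, where 0% of genes were. The comparison is therefore one of labels and does not establish a loss of ACSS2. In dorsal hippocampus 0 of 79 members passed edgeR's test, against a background of 0% of 14578 genes, and 0 members had an unadjusted p under 0.05, against 4.58% of genes. The members' median log2 fold change was 0.21, with 65 of 79 positive, against 0.03 over all genes. By complex the medians were 0.26, 0.10, 0.13, 0.23 and 0.20 for complexes I to V. Without dorsal knockdown 2 the median was -0.06, with 28 of 79 positive. The 3 members with the smallest p were Ndufc2 (log2 0.61, SE 0.36), Ndufb6 (0.61, SE 0.44) and Cox6a2 (-1.05, SE 0.76), each with an edgeR adjusted p of 0.999.

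Ndufc2, a membrane-arm subunit of complex I, stood at 62.7, 129, 72.2 and 53.6 CPM in dorsal knockdown, against 48.3, 48.5 and 58.4 CPM in dorsal control. The groups overlapped through dorsal knockdown 4, and dorsal knockdown 2 was the high library. Without that library its difference was 0.29.

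In ventral hippocampus 0 of 79 members passed, against 0% of genes, and 0 had an unadjusted p under 0.05, against 4.07%. The median was 0.16, with 60 of 79 positive, against -0.01 over all genes. Without the library labelled ventral knockdown 3 it was -0.21, with 13 of 79 positive, and without ventral control 1 it was 0.33, with 75 positive. Over the mean of both regions the median was 0.16, with 70 of 79 positive, 0 members passed against 0% of genes, and without the library labelled ventral knockdown 3 the median was -0.02. By unadjusted p, 1 member, Atp5k, was under 0.05, against 3.96% of genes.

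Atp5k, subunit e in the membrane part of ATP synthase, stood at 79.7, 141 and 84.5 CPM in ventral knockdown, against 64.2, 78.4, 69.5 and 76.0 CPM in ventral control. The lowest knockdown value (79.7 CPM) lay just above the highest control value (78.4 CPM). Atp5k was picked by its p, and the share of members or of all genes separated in this way is not given here. In dorsal hippocampus it stood at 87.6, 139, 111 and 91.0 CPM in knockdown, against 62.0, 99.4 and 95.6 CPM in control, with overlap. Its difference over both regions was 0.40 on the log2 scale (SE 0.17), with an edgeR unadjusted p = 0.036 and an adjusted p of 1, and in ventral hippocampus it was 0.48, or 0.19 without the library labelled ventral knockdown 3. Ndufa2 and Atp5d came next, at 0.36 (SE 0.22) and 0.27 (SE 0.17).

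**Figure D5:**
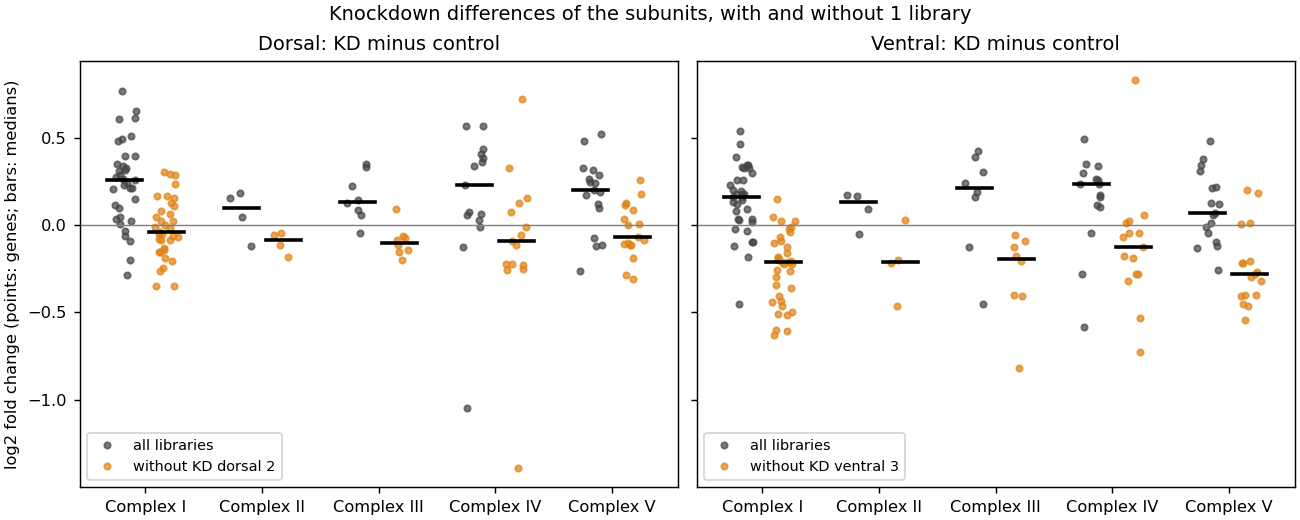
log2 fold change of knockdown over control for each tested subunit by complex (points are genes, bars are medians), in dorsal and ventral hippocampus, from all libraries (grey) and without 1 knockdown library (orange), which is dorsal knockdown 2 or the library labelled ventral knockdown 3. In both regions the medians of all 5 complexes are above 0 with all libraries and below 0 without the single library.

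The 2 regions were set against each other in each vector arm. Within knockdown, 0 of 79 members passed edgeR's test (0% of genes) and 0 had an unadjusted p under 0.05, against 2.17% of genes. The smallest p belonged to Ndufs1 (log2 -0.26, SE 0.22), Ndufs7 (-0.31, SE 0.27) and Cox6a2 (-0.74, SE 0.76). The median dorsal minus ventral difference was -0.10, against -0.01 over all genes, and 0.26 without the library labelled ventral knockdown 3. Within control, 0 members passed (0% of genes) and 0 had an unadjusted p under 0.05, against 5.58%; the median was -0.10, against -0.06 over all genes, and 0.04 without ventral control 1. The smallest p there belonged to Ndufb4 (log2 -1.48, SE 0.69, edgeR adjusted p = 0.731), in which ventral control 1 held 81.7 CPM, followed by Uqcrb and by Atp5s (-0.77, SE 0.47). Over both arms the median was -0.09 (0.09 without the library labelled ventral knockdown 3), led by Ndufb4 (-0.87, SE 0.47), Atp5h (-0.50) and Uqcrb (-0.60), with 0 members passing (0% of genes) and 0 at an unadjusted p under 0.05, against 2.66%. The region by arm interaction, the test of whether the knockdown difference itself differs between regions, had 0 members passing (0% of genes), 0 at an unadjusted p under 0.05, against 4.61%, and a median of 0.03, which became 0.45 without the library labelled ventral knockdown 3 and -0.21 without dorsal knockdown 2. Its smallest p belonged to Ndufv1 (-0.61, SE 0.43), Cox6a2 (-1.54, SE 1.09) and Ndufc2 (0.71, SE 0.51). DESeq2 called 0 members in each of these 7 comparisons.

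With the Rn45s share as a covariate, the median knockdown difference of the members was 0.02 in dorsal and 0.13 in ventral hippocampus, and 0 members were called. Without the 3 low-share libraries it was -0.07 in both regions, and again 0 were called. A p that misses the threshold does not show equal levels.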

How the data were processed

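Values are the authors' deposited counts, whole numbers of reads for each gene in 21 libraries. The tools named are STAR 2.5.2a, HTSeq 0.6.1p1 and the build mm10, per the submitters' processing notes, with no settings stated. The table's 5 lines of unassigned reads entered no library size, and it had 0 columns without a sample. The 15 ethanol libraries with over 1000000 gene reads were described and 14 of them tested in 1 model of 4 group means. The test was edgeR 4.0.16's quasi-likelihood test in R 4.3.3 (TMM scaling, robust fit, genes kept by filterByExpr at a minimum count of 10), with Benjamini-Hochberg adjustment over all tested genes; it was tested on simulated data. The slope added the log2 Rn45s share to the group means. A library's score averaged the tested members' log2 CPM, with a prior count of 1, after centring each gene. Lengths are those of GENCODE M21 transcripts, preferring APPRIS principal ones. Floors of 3 counts cover counting error only. The members, gene lists and rules were chosen with earlier results of these data known. Named members were, by rule, the 12 with the smallest p of the slope, the highest per kilobase in each complex, the 7 isoforms of other tissues, the 3 smallest p of each group comparison, the extreme slopes and the most and least variable; Sdhb, Sdhd, Cox8a, Cox6a1, Cox7a2l, Atp5sl, Atp5g2 and Ndufs5 were named after their values were seen, as were the single genes of the other lists. Alternatives were RLE scaling, no filter, a replicate block, only the groups compared, DESeq2 1.42.0, each library left out, all 20 libraries in 6 groups, Rn45s removed or used as a covariate, no group means and exclusion of the 3 libraries of lowest Rn45s share, which was added after the data had been seen.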

Additional observations from a re-analysis of the deposited data

Results flagged for a closer look

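Within groups of 4 libraries, 14 of 81 gene and group combinations examined had a library apart from the others by Dixon's criterion at 95%. Not all 83 members were examined. The genes found apart were all named members, several of them named for their slope or spread in these same libraries. The chance rate of about 1 in 20 groups is therefore no yardstick for this count. At the high end, 7 of the 14 were in dorsal knockdown 2, the dorsal library of lowest Rn45s share, and members share that library. There Atp5c1 stood at 280.2 CPM against 112 to 128 CPM in the other 3 dorsal knockdown libraries, Cox4i1 at 863 CPM against 456 to 524, Cox7b at 221 CPM against 85.3 to 107, Ndufa6 at 125 CPM against 50.6 to 63.0, Ndufv1 at 139 CPM against 113 to 114, Uqcrb at 106 CPM against 31.7 to 38.7, and Uqcrc2 at 266 CPM against 126 to 141. Ventral control 1, the library of lowest share of all, stood apart for Ndufb4 (81.7 CPM against 10.6 to 22.2 in the other 3), Ndufs1 (164 CPM against 106 to 115), Sdha (382 CPM against 340 to 341) and Cox7b2 (1.43 CPM against 0.108 to 0.325). Ndufa2 stood apart in ventral control 2, at 58.5 CPM against 49.1 to 50.3. Cox8b stood apart in ventral control 4, at 7.70 CPM against 0.357 to 0.649. Cox8c was at 0.132 CPM, a single read, in dorsal knockdown 4 and at 0 in the other 3.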

How the results depend on the processing

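Of 789 single-gene values recomputed under alternatives, 777 kept their direction and side of the threshold, 12 no longer passed it and 0 reversed. All 12 came from leaving out the 3 libraries of lowest Rn45s share. These values cover a choice of genes and not every called slope. Over all 79 tested members, leaving out dorsal knockdown 2 alone cut the called slopes from 53 to 32. It also raised the number of positive slopes from 3 to 5. No alternative called a member in a group comparison. Genes called by DESeq2, against 0 in edgeR, numbered 11 for knockdown against control in dorsal hippocampus, 35 in ventral, 4 over both regions, 13 for dorsal against ventral in control and 9 for the interaction. With all 20 libraries in 6 groups, 1 gene was called in the ventral comparison and 1 in the interaction, and with the Rn45s covariate 1 in the ventral comparison. Without the 3 low-share libraries, 7 genes were called in the ventral comparison, 3 over both regions, 12 for dorsal against ventral in control, 2 over both arms and 6 in the interaction, while the slope had 4 genes and 0 members called and a median of -0.048. Leaving out 1 library at a time gave 0 to 8 genes in the ventral comparison, 0 to 2 over both regions, 0 to 6 for dorsal against ventral in control (the highest of each without ventral control 1) and 0 to 2 in the interaction, whose member median ran from -0.21 to 0.45. The slope then had 1961 to 4593 genes and 32 to 55 members called (fewest members without dorsal knockdown 2, fewest genes without ventral control 1) with medians of -0.19 to -0.14. Other member medians ran from -0.06 to 0.35 in the dorsal and -0.21 to 0.33 in the ventral knockdown comparison, -0.02 to 0.27 over both regions, and for dorsal against ventral -0.18 to 0.04 in control, -0.32 to 0.26 in knockdown and -0.19 to 0.09 over both arms. With the Rn45s covariate the dorsal minus ventral medians were 0.15 in control, 0.04 in knockdown and 0.09 over both arms, opposite in sign to those without it, and the interaction's was -0.08. Of 18 pairs of libraries with the same replicate number, 6 had deviations that correlated over 0.1 (range -0.22 to 0.37). Many of these pairs cross the vector arms, and such correlations cannot tell whether a number marks a shared animal. With the number as a replicate block, the slope had 33 members and 2833 genes called and 0 members were called in the 7 group comparisons. The group sizes of 3 and 4 and the 3 libraries on which the slope rests limit these results.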
